A study of Mus musculus with 12 samples.

Results

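Antigen presentation genes were followed in cultured mouse embryonic fibroblasts treated with an inhibitor of MYST histone acetyltransferases. The set holds 10 genes picked by name from the 27179 in the count table: H2-DMb1, H2-DMb2, H2-DMa, H2-K1, H2-D1, B2m, Tap1, Tap2, Tapbp and Cd74. All 10 are in the table, and 8 of them were among the 14136 genes that passed the filter on low counts, which H2-DMb2 and Cd74 did not. The set was assembled with results of these libraries known, H2-DMb1 having stood out between the compounds at 96 h. The 96 h comparison of the compounds is therefore given as a description without a test.

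The fibroblasts came from wild-type C57BL/6 embryos of day 13.5 and grew in DMEM with 10% serum at 3% oxygen and 5% carbon dioxide. WM-8014, which the labels call a MYST inhibitor, and WM-2474, called its inactive control, were each given at 10 µM. Treatment lasted 96 or 240 h. Every one of the 4 groups has cultures numbered 5, 6 and 7, sequenced as poly(A) RNA libraries that keep strand, so there are 12 libraries. The groups share strain, genotype and medium, untreated cells are not analysed here, and the labels do not say whether a culture is 1 embryo or a pool.

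MHC class I molecules, made of a heavy chain such as H2-K1 or H2-D1 and the light chain B2m, show peptides from inside the cell to CD8 T cells. Tap1 and Tap2 form the pump that brings these peptides into the endoplasmic reticulum, and Tapbp, tapasin, holds the empty class I molecule at that pump. MHC class II molecules carry peptides from endosomes and belong mainly to macrophages, dendritic cells and B cells, with fibroblasts making them mostly after interferon-gamma. Cd74, the invariant chain, blocks the class II groove until it is cut away, and H2-DM, a pair of an H2-DMa and an H2-DMb chain, removes the last fragment so that a peptide can bind. Mice have neighbouring beta chain genes, H2-DMb1 and H2-DMb2.

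Of the 10 genes, 8 lie in the MHC on chromosome 17, in the build mm10. H2-DMb1 spans chr17:34153191-34160229, H2-DMb2 chr17:34143229-34151553 and H2-DMa chr17:34119693-34139101. Tap1 is at chr17:34187556-34197225, Tap2 at chr17:34204479-34216321, Tapbp at chr17:33919478-33929290, H2-K1 at chr17:33996012-34000619 and H2-D1 at chr17:35263094-35267497. B2m is on chromosome 2 (chr2:122147687-122153082) and Cd74 on another chromosome.

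The promoters of the 2 pairs of related genes are shown because the members of a pair did not have like values in these cells. Each window runs from 250 bases before to 50 bases after the annotated start, 5′ to 3′ on the gene's strand, from RefSeq on GRCm38.p6, the assembly of mm10. Capitals mark matches on either strand to CCAAT (read as ATTGG on the other strand), TGACG, GAANNGAAA and GGGNNTTCC, an element of the kind bound by NF-kappaB. The H2-DMb1 window is chr17:34152941-34153240 (+) and the H2-DMb2 window chr17:34144999-34145298 (+), at a start that lies inside the longer annotated span of that gene.
H2-DMb1: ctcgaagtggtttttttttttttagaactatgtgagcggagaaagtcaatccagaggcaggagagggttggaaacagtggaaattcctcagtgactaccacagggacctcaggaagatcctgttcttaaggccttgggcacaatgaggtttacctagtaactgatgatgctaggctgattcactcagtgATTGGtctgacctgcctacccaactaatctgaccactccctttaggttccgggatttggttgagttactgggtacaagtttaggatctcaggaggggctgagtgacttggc
H2-DMb2: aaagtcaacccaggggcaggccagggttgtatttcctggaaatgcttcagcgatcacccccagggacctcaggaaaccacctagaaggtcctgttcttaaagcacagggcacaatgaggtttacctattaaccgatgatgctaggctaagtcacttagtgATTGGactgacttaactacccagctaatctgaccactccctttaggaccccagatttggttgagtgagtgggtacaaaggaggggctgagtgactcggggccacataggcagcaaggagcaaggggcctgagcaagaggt
Each DM window holds 1 CCAAT match, 61 bases before the H2-DMb1 start and 90 before the H2-DMb2 start, and none of the other marked motifs. Aligned to each other, 209 of 271 columns (77.1%) were identical, with a longest common run of 23 bases. An interferon-gamma-type motif, TTCNNNGAA, was searched as well and is not marked: H2-DMb2 holds 1, 218 bases before its start, and H2-DMb1 none.

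The windows of the class I heavy chains are chr17:34000298-34000597 (−) for H2-K1, which has a second annotated start beside this one, and chr17:35262844-35263143 (+) for H2-D1.
H2-K1: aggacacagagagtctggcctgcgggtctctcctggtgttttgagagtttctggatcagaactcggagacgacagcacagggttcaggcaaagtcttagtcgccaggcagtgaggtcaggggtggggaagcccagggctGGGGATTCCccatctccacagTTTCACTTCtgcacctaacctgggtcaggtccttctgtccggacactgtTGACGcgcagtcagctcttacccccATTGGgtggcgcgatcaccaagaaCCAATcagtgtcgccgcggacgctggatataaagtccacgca
H2-D1: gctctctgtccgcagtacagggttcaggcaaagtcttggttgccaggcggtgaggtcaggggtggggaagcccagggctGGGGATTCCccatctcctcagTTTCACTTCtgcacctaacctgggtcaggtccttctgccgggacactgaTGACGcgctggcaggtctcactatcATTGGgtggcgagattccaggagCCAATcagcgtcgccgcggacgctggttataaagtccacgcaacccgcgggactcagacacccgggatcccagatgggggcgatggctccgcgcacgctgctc
Both carry 1 GGGNNTTCC, 1 GAANNGAAA match (read as TTTCACTTC), 1 TGACG and 2 CCAAT matches, in that order along the strand. They were identical in 211 of 240 aligned columns (87.9%), with a common run of 47 bases. Among 32851 promoter windows of that length, 37.4% hold CCAAT, 20.8% TGACG, 7.52% GAANNGAAA, 8.3% TTCNNNGAA and 5.82% GGGNNTTCC. The B2m window holds 1 CCAAT and 2 TGACG matches and the Tap1 window 1 of each. Those are matches of letters, with no measurement of binding in these data.

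The 12 libraries held between 10147466 and 45903190 reads, and 3 reads stand for 0.0654 to 0.296 CPM, the read count relative to the scaled library total. Sums of reads over a group, given for genes of few reads, are not scaled for these totals and do not compare groups. Cultures 6 and 7 in the WM-2474 96 h group differed from the rest in single genes such as Misp3, a gene chosen after its values were seen, at 0.723 and 0.942 CPM there and 79.8 to 285 CPM in the other 10. Values of the 10 genes that move by over 1.5 times without those libraries are given with and without them. All libraries are labelled female, yet each held reads of the Y-linked gene Ddx3y (96.2 to 124 CPM) and at most 4 reads of Xist. The 10 fibroblast markers summed to 23850 to 40890 CPM in all libraries, and none of them was at 0 in any group.

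At 240 h the compounds differed in 7 of the 8 tested genes. With WM-8014, H2-DMb1 was 5.74-fold and H2-DMa 1.96-fold as high as with WM-2474, while H2-K1 was 1.83-fold lower. Tap1, Tapbp and B2m were higher and H2-D1 lower by smaller amounts, and Tap2 did not pass. That is 5 genes higher and 2 lower by edgeR's quasi-likelihood test at an adjusted p under 0.05. Of all 14136 genes tested, 42.6% passed, 21.2% higher and 21.4% lower. The median log2 fold change was 0.22 over the 8 genes and 0.01 over all genes. Both the count and the median of the 8 genes include H2-DMb1, which had stood out at 96 h in cultures of the same numbers.

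**Figure D1:**
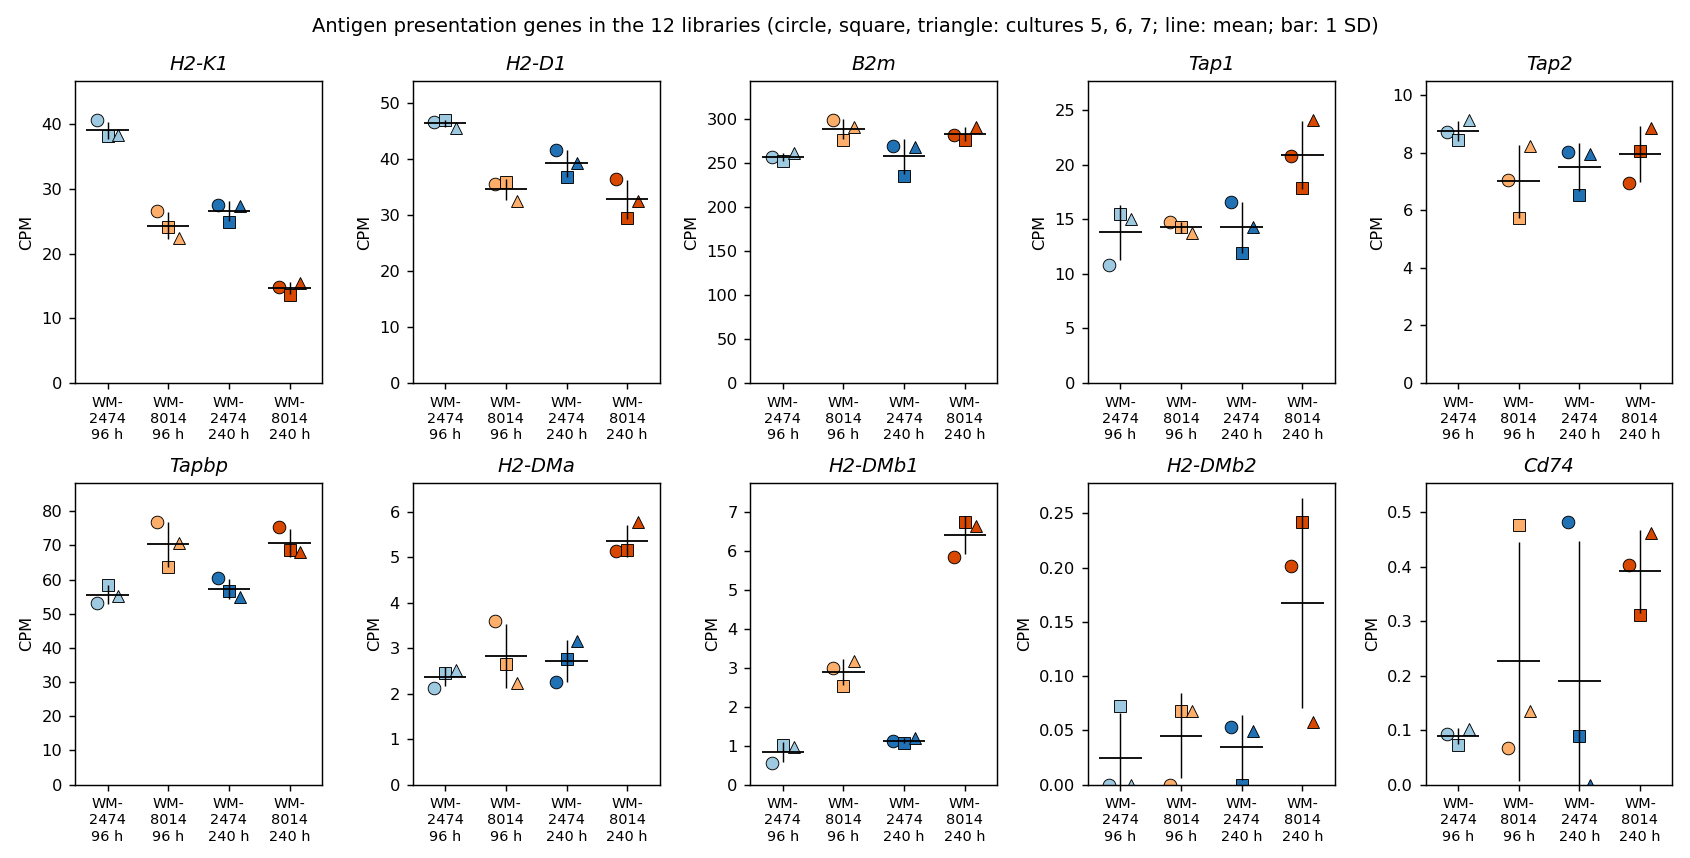
CPM of the 10 genes in each library (vertical axes from 0, a scale of its own per gene), by group, with cultures 5, 6 and 7 as circle, square and triangle, the mean as a line and 1 SD as a bar. H2-DMb1 is at 5.85 to 6.74 CPM in the WM-8014 240 h libraries and at most 3.18 CPM in the other groups, and H2-K1 is lowest in those same libraries, at 13.6 to 15.5 CPM.

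The class I heavy chains were lower with the inhibitor at both times. H2-K1 stood at 40.6, 38.2 and 38.4 CPM in cultures 5, 6 and 7 with WM-2474 at 96 h and at 26.5, 24.1 and 22.4 CPM with WM-8014. The 240 h levels of H2-K1 were 27.5, 24.8 and 27.4 CPM with WM-2474 and 14.9, 13.6 and 15.5 CPM with WM-8014. Within each time all inhibitor libraries lay below all control libraries, and the 96 h inhibitor libraries lay in the range of the 240 h controls or just beneath it. The 240 h difference was a log2 fold change of -0.87 (SE 0.0744, edgeR adjusted p = 5.92e-09), lower in 3 of 3 same-numbered cultures, and at 96 h the log2 fold change was -0.68.

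H2-D1, the other heavy chain of this strain, followed with smaller steps. Its levels at 96 h were 46.6, 46.9 and 45.6 CPM with WM-2474 and 35.5, 35.9 and 32.4 CPM with WM-8014. At 240 h they were 41.7, 36.8 and 39.3 CPM with WM-2474 and 36.4, 29.5 and 32.5 CPM with WM-8014. The groups did not overlap at either time, but at 240 h the highest inhibitor library, culture 5, was close to the lowest control library, culture 6. The log2 fold change at 240 h was -0.28 (SE 0.066, edgeR adjusted p = 0.0014), and it was -0.42 at 96 h.

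B2m, the light chain that all class I molecules need, moved the other way by a small amount. It was at 257, 252 and 262 CPM with WM-2474 and 298, 276 and 291 CPM with WM-8014 at 96 h. The 240 h levels were 270, 235 and 268 CPM with WM-2474 and 282, 276 and 291 CPM with WM-8014. The 240 h groups were close but did not overlap, with a log2 fold change of 0.14 (SE 0.0452, edgeR adjusted p = 0.0202), and 0.17 at 96 h. This B2m call did not hold when culture 6 was left out of the WM-2474 240 h group (adjusted p = 0.169) or culture 7 out of the WM-8014 240 h group (0.0768). It was also lost when culture 6 or 7 was left out everywhere (0.127 and 0.0787) and when the 2 groups were fitted alone (0.0541), in a range of 0.00258 to 0.169 in all alternatives.

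Read per base of deposited gene length, the level of B2m over the summed level of H2-K1 and H2-D1 was 5.81, 5.85 and 6.15 in the WM-2474 96 h libraries and 10.9, 12.7 and 12.1 in the WM-8014 240 h libraries. It was 9.12 to 10.5 with WM-8014 at 96 h and 7.53 to 7.96 with WM-2474 at 240 h, so the 4 groups did not overlap in this ratio. The ratio of H2-K1 to H2-D1 per length was 0.86 to 0.92 in the WM-2474 96 h libraries and 0.432 to 0.502 in the WM-8014 240 h libraries, with 0.706 to 0.788 and 0.697 to 0.734 in the WM-8014 96 h and WM-2474 240 h groups. These ratios were formed after the values were seen and were not tested. In GENCODE transcripts of the same build, 9.63% of the 50-base words of H2-K1 and 12.8% of those of H2-D1 occur in another gene, including 4.08% and 5.44% in each other, so some reads of the class I family may have been assigned elsewhere or dropped.

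The 2 chains of the peptide pump did not have the same values. Tap1 was at 10.8, 15.5 and 15 CPM with WM-2474 and 14.7, 14.3 and 13.7 CPM with WM-8014 at 96 h. At 240 h it was at 16.6, 11.9 and 14.2 CPM with WM-2474 and 20.8, 17.9 and 24.1 CPM with WM-8014. Only at 240 h did the groups not overlap, with all 3 inhibitor libraries above the controls. The log2 fold change was 0.54 (1.46-fold, SE 0.139, edgeR adjusted p = 0.00599) at 240 h and 0.01 at 96 h. Without culture 7 in all groups the 240 h adjusted p was 0.0946, in a range of 0.000515 to 0.0946 over all alternatives. The 96 h log2 fold change was 0.39 without the WM-2474 libraries of cultures 6 and 7.

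Tap2, the partner chain, was at 8.72, 8.46 and 9.13 CPM with WM-2474 and 7.06, 5.72 and 8.25 CPM with WM-8014 at 96 h. Its 240 h levels were 8.04, 6.53 and 7.97 CPM with WM-2474 and 6.96, 8.09 and 8.88 CPM with WM-8014, groups that overlapped. The log2 fold change at 240 h was 0.11 with a 95% interval of -0.14 to 0.37 (edgeR adjusted p = 0.49), and -0.12 after thinning to the smallest total. It was -0.34 at 96 h.

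Tapbp, the tapasin gene, was higher with the inhibitor by about the same step at both times. It was at 53.2, 58.6 and 55.2 CPM with WM-2474 and 76.8, 63.6 and 70.6 CPM with WM-8014 at 96 h. After 240 h it was at 60.5, 56.6 and 54.8 CPM with WM-2474 and 75.4, 68.6 and 68.1 CPM with WM-8014. Neither pair of groups overlapped. The log2 fold change was 0.30 (1.23-fold, SE 0.0606, edgeR adjusted p = 0.000548) at 240 h and 0.34 at 96 h. The gene's span overlaps that of Gm19412, and 20.3% of its 50-base words occur in that gene's transcripts.

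Of the class II exchange factor, H2-DMb1 had the largest fold of the 8 genes. Its counts were low with WM-2474, 6 to 47 reads per library at 96 h and 21 to 24 at 240 h. It was at 0.557, 1.01 and 0.962 CPM with WM-2474 and 2.99, 2.52 and 3.18 CPM with WM-8014 at 96 h, the values that led to the choice of these genes. At 240 h it was at 1.13, 1.07 and 1.19 CPM with WM-2474 and 5.85, 6.74 and 6.63 CPM with WM-8014. Every inhibitor library was above every control library. The 240 h log2 fold change was 2.52 (SE 0.175, 95% interval 2.16 to 2.89, edgeR adjusted p = 2.88e-10), higher in 3 of 3 cultures, and stayed between 2.44 and 2.58 in all alternatives. These libraries are not those of 96 h but carry the same culture numbers. The log2 fold change at 96 h was 1.67, and 2.36 without the control libraries of cultures 6 and 7.

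H2-DMb2, the neighbouring beta chain gene, had 1, 2, 2 and 10 reads over the 3 libraries of the WM-2474 96 h, WM-8014 96 h, WM-2474 240 h and WM-8014 240 h groups. In that order its mean levels were 0.024, 0.045, 0.034 and 0.167 CPM. Its libraries held 0 to 7 reads, and 4 of 12 held none. Transcripts of the 2 genes share 22.7% of the 50-base words of H2-DMb1 and 21.2% of those of H2-DMb2, so a share of the reads cannot be told apart between them.

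H2-DMa, the alpha chain, was higher with the inhibitor at 240 h. It was at 2.13, 2.46 and 2.52 CPM with WM-2474 and 3.6, 2.66 and 2.23 CPM with WM-8014 at 96 h, groups that overlapped. After 240 h it was at 2.25, 2.75 and 3.17 CPM with WM-2474 and 5.14, 5.15 and 5.77 CPM with WM-8014, with no overlap. The log2 fold change was 0.97 (SE 0.165, edgeR adjusted p = 6.17e-05) at 240 h, in 3 of 3 cultures. It was 0.22 at 96 h, and 0.40 without the control libraries of cultures 6 and 7. H2-DMa and Brd2, which encodes a reader of acetylated histones, overlap in the annotation, sharing 8.43% of the 50-base words of H2-DMa. Brd2 was far more abundant, at 270 and 286 CPM in the WM-2474 and WM-8014 groups at 240 h (log2 fold change 0.08, edgeR adjusted p = 0.0643). Brd2 passed when culture 7 was left out of the WM-8014 240 h group (0.0191) or of all groups (0.0167) and after thinning (0.0423).

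Per base of gene length, H2-DMb1 stood at 0.159 to 0.25 of H2-DMa in the WM-2474 96 h libraries and 0.228 to 0.304 in the WM-2474 240 h libraries. With WM-8014 that ratio was 0.505 to 0.866 at 96 h and 0.692 to 0.796 at 240 h. The beta chain was below the alpha chain per length in all 12 libraries, and nearer to it with WM-8014 than with WM-2474 at 240 h. The 96 h ratios contain the H2-DMb1 values that led to the choice, so nothing is read from their difference. This ratio was formed with earlier results known and was not tested.

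Cd74, the invariant chain, was close to the counting limit. Its reads summed to 7 and 10 over the WM-2474 and WM-8014 libraries at 96 h and to 11 and 21 at 240 h, with 0 to 9 per library. In the same order its mean levels were 0.089 and 0.227 CPM at 96 h and 0.19 and 0.392 CPM at 240 h. It did not pass the filter and was not tested.

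**Figure D2:**
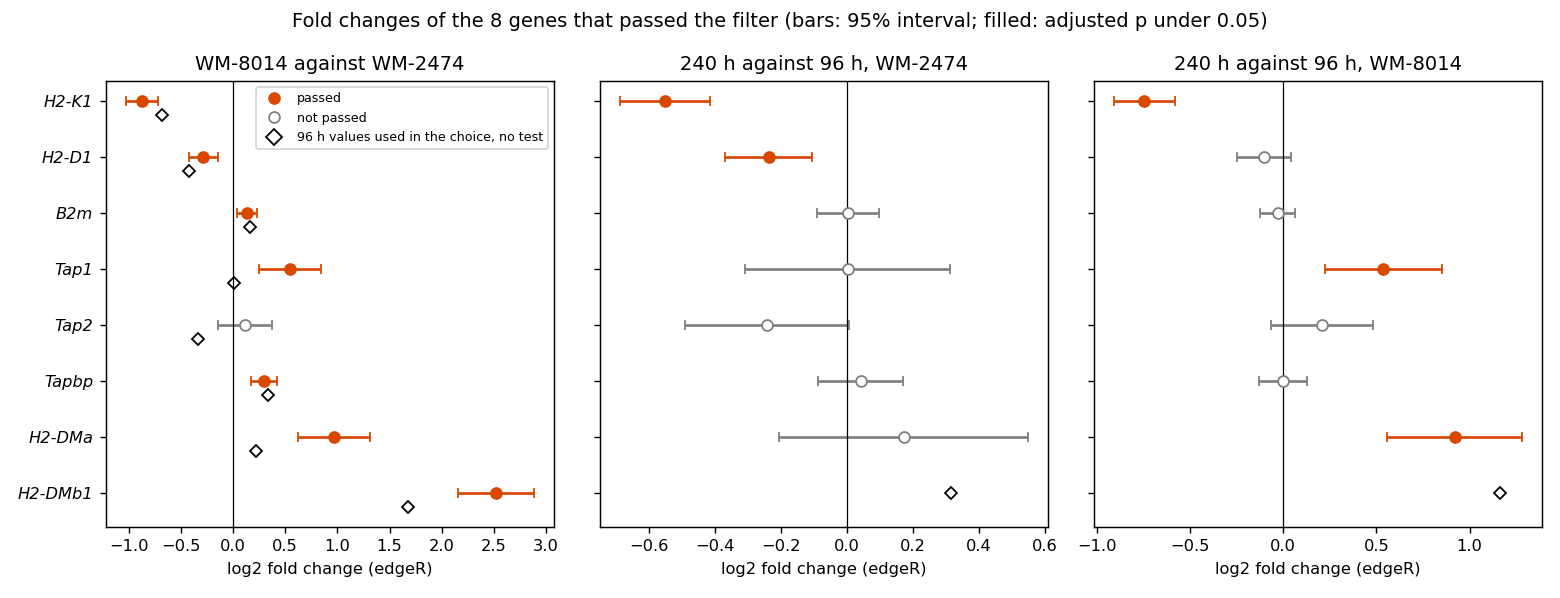
Log2 fold changes of the 8 tested genes (horizontal axes; a scale of its own per panel) with 95% intervals, for WM-8014 against WM-2474 at 240 h with the 96 h values as open diamonds without a test, and for 240 h against 96 h under each compound; filled circles passed at an adjusted p under 0.05, and H2-DMb1 over time is an open diamond because its 96 h values led to the choice. H2-DMb1 lies at 2.52 and H2-K1 at -0.87 between the compounds at 240 h, and H2-K1 is left of 0 in all 3 panels.

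The 96 h values of the compounds were used in the choice of the genes, so their count at 96 h is a description from which nothing is read. By the same threshold it was 3 higher with WM-8014 and 2 lower, beside 10.9% and 11.8% of all genes (22.8% in all). The compound effect at 240 h minus that at 96 h, on the log2 scale and without a test, was 0.85 for H2-DMb1, 0.75 for H2-DMa, 0.54 for Tap1 and 0.45 for Tap2. It was -0.19 for H2-K1, 0.13 for H2-D1, -0.03 for B2m and -0.04 for Tapbp. These differences use the 96 h control libraries. Without cultures 6 and 7 of that group the difference was 0.155 for H2-DMb1, 0.15 for Tap1 and -0.11 for Tapbp, and it was 0.56 for H2-DMa and 0.43 for Tap2.

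Over time under the inactive compound, the heavy chains fell and no other tested member passed, H2-DMb1 left aside. These tests share the 96 h libraries in which H2-DMb1 stood out, so they are not independent of the choice of the genes. H2-K1 fell by 0.55 on the log2 scale from 96 to 240 h (SE 0.0652, edgeR adjusted p = 6.85e-07) and H2-D1 by 0.24 (SE 0.0629, adjusted p = 0.00443). The H2-D1 call was lost when culture 6 was left out everywhere (adjusted p = 0.0614) or cultures 6 and 7 were left out of the WM-2474 96 h group (0.109), in a range of 0.00102 to 0.109. Apart from H2-DMb1, no tested member was called higher and 2 were called lower, against 19.8% and 19.1% of all genes (38.9% in all). For the other members the log2 changes were 0.17 for H2-DMa, 0.00 for B2m and Tap1, -0.24 for Tap2 (adjusted p = 0.117) and 0.04 for Tapbp. H2-DMb1 had a log2 change of 0.32, a description since its 96 h values led to the choice. Its libraries did not overlap between the times and were higher at 240 h in 3 of 3 cultures. Without the 96 h libraries of cultures 6 and 7 the changes were 1.01 for H2-DMb1, 0.36 for H2-DMa, 0.39 for Tap1 and 0.11 for Tapbp. At an unadjusted p under 0.05, and with DESeq2, no tested member apart from H2-DMb1 was higher either.

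Over time under the inhibitor, H2-DMa and Tap1 rose and H2-K1 fell. The tests under this compound share the 96 h libraries too and are likewise not independent of the choice of the genes. H2-DMb1 was 2.24-fold as high at 240 h as at 96 h (log2 change 1.16), given without a test since its 96 h libraries led to its choice. H2-DMa rose 1.89-fold (log2 change 0.92, SE 0.174, edgeR adjusted p = 0.00015) and Tap1 1.45-fold (log2 change 0.54, SE 0.145, adjusted p = 0.0073), a call that did not hold without culture 7 in all groups (0.127; range 0.00052 to 0.127). H2-K1 fell by 0.75 (SE 0.078, adjusted p = 5.91e-08). H2-D1, B2m, Tap2 and Tapbp did not pass, at log2 changes of -0.10, -0.03, 0.21 and 0.00. Apart from H2-DMb1, 2 of the other 7 genes were called higher and 1 lower, against 24.8% and 25% of all genes (49.7% in all). Whether the changes over time differed between the compounds was not tested.

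**Figure D3:**
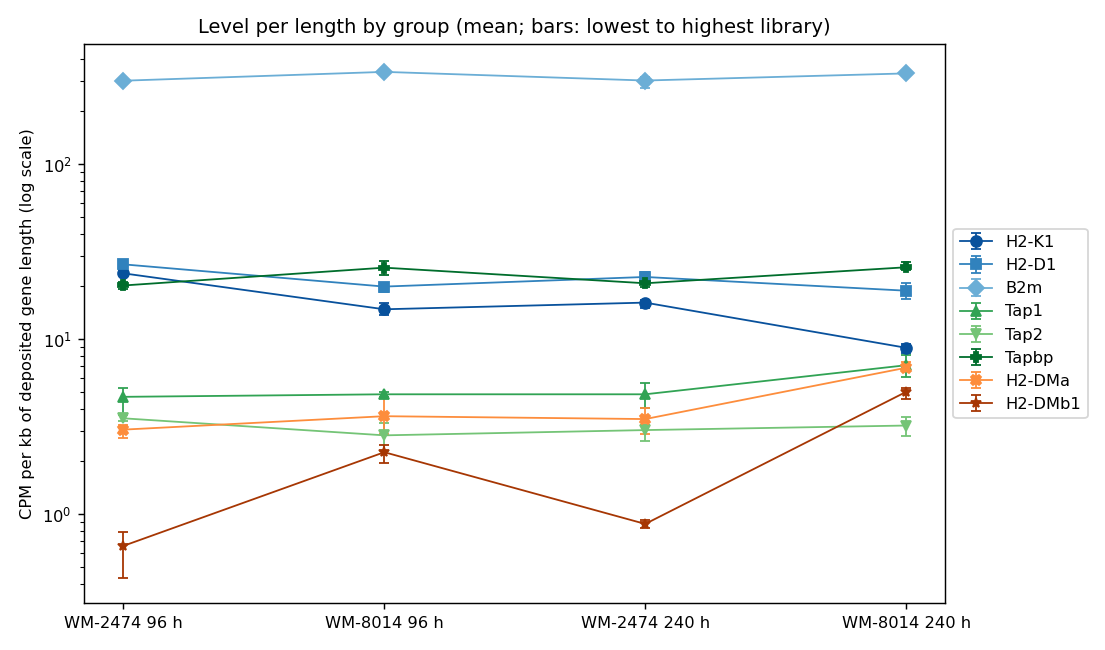
CPM per kb of deposited gene length (vertical axis, log scale) of the 8 tested genes in the 4 groups, as the group mean with bars from the lowest to the highest library. B2m lies at 300 to 336 CPM per kb, more than any other of the genes, and H2-DMb1 spans 0.657 to 4.99 CPM per kb.

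The level per kb of gene length placed B2m first in every group, at means of 299 to 336 CPM per kb. Tapbp, H2-D1 and H2-K1 came next, at 20.2 to 25.7, 18.9 to 26.7 and 8.91 to 23.7 CPM per kb. With WM-2474 at 96 h the order was H2-D1, H2-K1 and Tapbp, and at 240 h with WM-8014 it was Tapbp, H2-D1 and H2-K1, with no overlap of neighbouring library ranges in either. Tap1, H2-DMa and Tap2 followed at 4.67 to 7.08, 3.04 to 6.85 and 2.82 to 3.52 CPM per kb. With WM-8014 at 240 h the library ranges of Tap1 (6.06 to 8.15) and H2-DMa (6.58 to 7.39) overlapped. H2-DMb1 was the lowest of the 8 at means of 0.657, 2.26 and 0.877 CPM per kb in the first 3 groups and passed Tap2, at 3.2, with 4.99 CPM per kb in the WM-8014 240 h group. H2-DMb2 and Cd74 were at means of at most 0.277 CPM per kb.

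The pathway around these genes was read from 4 lists of 95 further genes, of which 89 were in the table and 64 passed the filter. At 240 h 18 of the 64 were higher with WM-8014, 11 lower and 35 did not pass, with a median log2 fold change of -0.03. The count of 11 was 7 when culture 7 was left out of the WM-2474 240 h group or of all groups, and 7 after thinning to the smallest total. Of all genes tested, 21.2% were higher and 21.4% lower.

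Of class II chains and their processing, 7 of the 9 tested genes rose at 240 h and 2 fell, beside 21.2% and 21.4% of all genes. The risers include the lysosomal proteases Ctsd (992 to 1439 CPM, log2 fold change 0.54, SE 0.0355, edgeR adjusted p = 1.38e-10), Lgmn, Ctsb and Ctsl, and Ifi30, the thiol reductase of antigen processing. Their log2 fold changes were 0.42, 0.27, 0.25 and 0.32. Marchf8, a ubiquitin ligase that removes class II from the surface, rose by 0.33 and the costimulator Cd80 by 0.61. Another costimulator, Cd40, named here after its values were seen, was at 1.02, 1.51 and 2.33 CPM with WM-2474 and 0.403, 0.829 and 1.21 CPM with WM-8014. It was called lower (log2 fold change -0.90, SE 0.331, edgeR adjusted p = 0.0327) although the groups overlapped, but not with DESeq2 (0.0973) or without culture 7 of the WM-2474 240 h group (0.226), nor in 8 further alternatives. H2-Ab1, a class II beta chain, was also lower, with means of 1.39 CPM in control and 0.624 CPM in inhibitor libraries (log2 fold change -1.05, SE 0.282, edgeR adjusted p = 0.00463), on 6 to 30 reads per library, and did not pass without culture 7 in all groups (0.0864) or in the thinned libraries (0.0888). Its partner H2-Aa had 1 read over all 12 libraries. Reads of H2-Eb1, not tested, summed to 17 and 37 over the WM-2474 and WM-8014 groups at 240 h.

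Of the proteins that feed class I with peptide, 4 of 16 tested genes were higher at 240 h, 2 were lower and 10 did not pass. The shares over all genes were 21.2% higher and 21.4% lower. Tapbpl, a relative of tapasin that edits peptides, rose from 10.6 to 14.8 CPM (log2 fold change 0.50, SE 0.0871, edgeR adjusted p = 7.2e-05). Erap1, which trims peptides in the endoplasmic reticulum, rose by 0.25 (adjusted p = 0.00739, and 0.0556 without culture 7 in all groups), and Lnpep and Psme1 by 0.27 and 0.24. The chaperone Hspa5 fell by 0.31 and the translocon subunit Sec61a1 by 0.15. Of the immunoproteasome subunits, Psmb10 had a log2 fold change of 0.23 (adjusted p = 0.0679) and Psmb8 of -0.49 (0.321), and Psmb9 was not tested. Psmb10 passed without culture 7 of the WM-8014 240 h group (0.0465). Psmb8 passed without culture 6 of that group (log2 fold change -1.31, adjusted p = 0.0441) or of all groups (-1.52, 0.0365).

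Among other class I chains and class I-like molecules, 2 of 12 rose at 240 h, none fell and 10 did not pass. Of all genes, 21.2% were higher and 21.4% lower. The risers were Fcgrt, the receptor that protects antibodies and albumin (39.1 to 61.2 CPM, log2 fold change 0.64, SE 0.0623, edgeR adjusted p = 4.8e-08), and H2-T22, by 0.23. Without culture 5 of the WM-8014 240 h group, H2-Q4 passed as lower between the compounds (log2 fold change -0.88, edgeR adjusted p = 0.0472). H2-T23 passed as higher in that setting (0.23, adjusted p = 0.0322) and in other alternatives. Time moved several genes of this list under both compounds. H2-T23, the mouse Qa-1 antigen, rose from 10.9 to 25.1 CPM under WM-2474 and from 13.6 to 28.2 CPM under WM-8014, log2 changes of 1.21 and 1.06 (adjusted p = 2.77e-10 and 1.15e-09). H2-Q4 fell by 1.58 and 2.27, and Cd1d1, which presents lipids, by 0.71 and 1.09. The WM-2474 call of H2-Q4 did not hold without the 96 h control libraries of cultures 6 and 7 (adjusted p = 0.0663).

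Of 27 tested genes of MHC transcription and the interferon signal, 5 rose and 7 fell at 240 h and 15 did not pass. These counts stand beside 21.2% higher and 21.4% lower over all genes. Irf1, an interferon-induced activator of class I genes, was at 16.4 CPM in control and 10.8 CPM in inhibitor libraries (log2 fold change -0.58, SE 0.0913, edgeR adjusted p = 2.31e-05), and it fell by 0.82 from 96 to 240 h under WM-8014 (adjusted p = 1.83e-07). Irf1 was called lower over time under WM-2474 too, a call lost with DESeq2 (log2 change -0.24, adjusted p = 0.0761) and in other alternatives. Nlrc5, the class I transactivator, was at 1.68 and 2.46 CPM (log2 fold change 0.46, adjusted p = 0.196), and passed without culture 6 of the WM-8014 240 h group (0.75, adjusted p = 0.047). Creb1 fell by 0.34, and Jak1, Ifngr2 and Rela rose by 0.23, 0.24 and 0.15. Ciita, the class II transactivator, was not tested, with 5, 13, 10 and 15 reads summed over the WM-2474 96 h, WM-8014 96 h, WM-2474 240 h and WM-8014 240 h groups.

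Over the 64 genes, 17 rose and 13 fell from 96 to 240 h under WM-2474, and 14 rose and 25 fell under WM-8014. Of all genes, 19.8% rose and 19.1% fell under WM-2474, and 24.8% and 25% under WM-8014. The counts under WM-2474 were 6 and 7 without the 96 h control libraries of cultures 6 and 7, where those of all genes went from 2800 and 2697 to 1454 and 1256, and 13 became 8 when culture 7 was left out of the WM-2474 240 h group. Between the compounds at 96 h, 19 were higher and 7 lower, beside 10.9% and 11.8% of all genes. Without those 2 libraries the counts were 7 and 0, and those of all genes went from 1544 and 1674 to 432 and 437.

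**Figure D4:**
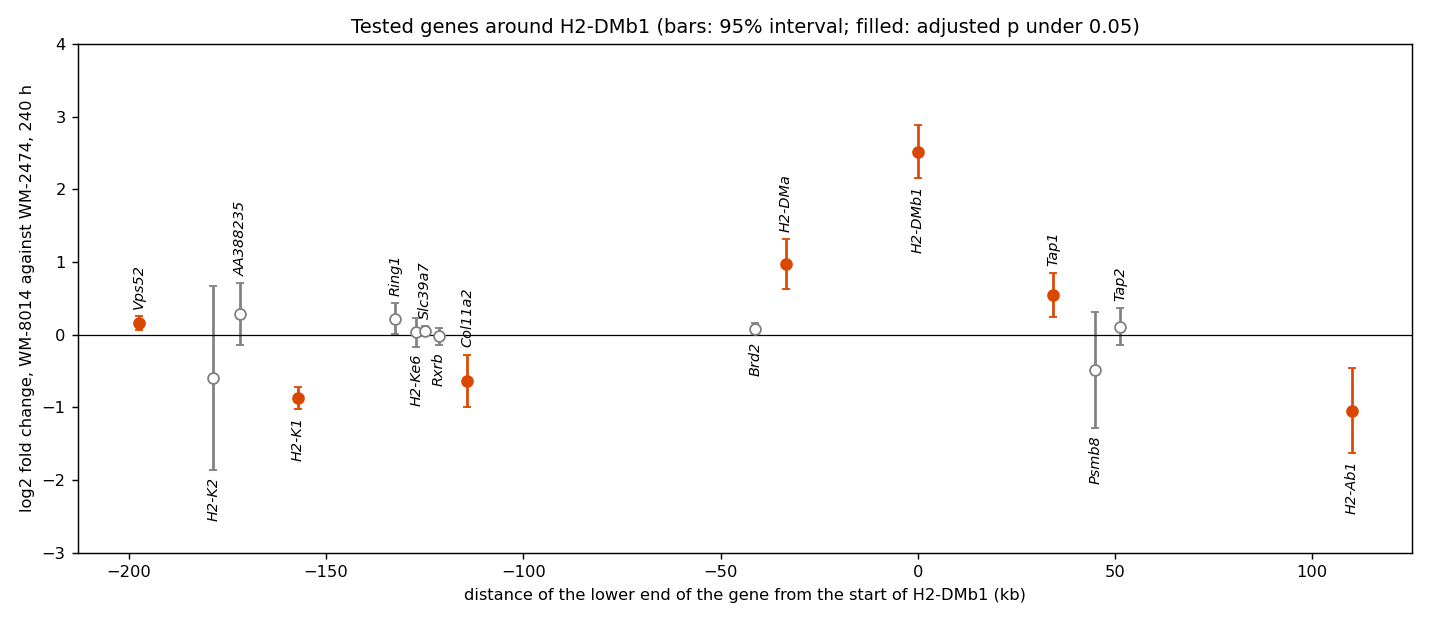
Log2 fold change of WM-8014 against WM-2474 at 240 h (vertical axis, with 95% intervals) of the 16 tested genes within 200000 bases of the start of H2-DMb1, against the distance of the lower end of each gene from that start in kb; filled points passed at an adjusted p under 0.05. H2-DMb1 and H2-DMa lie at 2.52 and 0.97, and Brd2, H2-K1 and H2-Ab1 at 0.08, -0.87 and -1.05.

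In the 200000 bases to either side of the H2-DMb1 start the annotation has 26 genes, 16 of them tested. At 240 h H2-DMb1, H2-DMa, Tap1 and Vps52 were higher with WM-8014, H2-K1, Col11a2 and H2-Ab1 lower, and 9 did not pass. Vps52, a gene of vesicle tethering, had a log2 fold change of 0.16 (edgeR adjusted p = 0.00742), a call lost when culture 7 was left out of the WM-8014 240 h group (0.0747) or of all groups (0.121) and after thinning (0.0701). Col11a2, a collagen chain, was at 4.55 and 2.97 CPM (log2 fold change -0.64, adjusted p = 0.00545), and did not pass without culture 6 in all groups (0.105). The genes that did not pass include Brd2, Ring1, Rxrb, Slc39a7, H2-Ke6 and Tap2, of which Brd2 passed in the settings given above and Ring1 after thinning (0.0461). That is 4 higher and 3 lower of 16, near the shares of 21.2% and 21.4% of all genes. The count includes H2-DMb1, on which the window is centred, and the members H2-DMa, Tap1 and H2-K1, so it does not describe the neighbours alone.

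Genes of like pattern were sought by Pearson's r of log2 CPM over the 12 libraries, a description without a test, in which all values share the libraries and their groups. Nearest to H2-DMb1 were Ripk1 (r = 0.991), Sema3b (0.98), Tnfrsf14 (0.977), Ctsa (0.974) and Rasl11a (0.973), which encode a cell death kinase, a semaphorin, a receptor of the TNF family, a lysosomal carboxypeptidase and a small GTPase. Among the members it had r = 0.836 with H2-DMa, 0.861 with Tapbp and -0.925 with H2-K1. Nearest to H2-K1 were H1f0 (0.989), Men1 (0.985), Aarsd1 (0.98), Pold2 (0.979) and Xrcc1 (0.978), genes of a linker histone, menin, a tRNA-editing protein, a DNA polymerase subunit and a DNA repair scaffold, and its r with H2-D1 was 0.885. Among those nearest to Tap1 were Atp9a (0.914), Syt12 (0.907), Tef (0.905) and Mavs (0.904), the last an adaptor of antiviral signalling, while its r with Tap2 was 0.156.

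Since class II genes are typical of leukocytes, markers of those cells were read beside H2-DMb1 and H2-DMa. The summed level of 15 leukocyte and macrophage markers was 11.2 to 12.9 CPM with WM-2474 and 16 to 17.2 CPM with WM-8014 at 96 h. At 240 h it was 7.32 to 9.16 and 13.1 to 14.5 CPM, a sum higher with the inhibitor at both times. Csf1r, Cd68, Cd14 and Lyz2 made up most of it, with medians over the 12 libraries of 2.9, 2.83, 2.26 and 2.09 CPM. No other marker of the list had a median above 0.622 CPM. At 240 h 2 of 5 tested markers were higher, Csf1r (2.24 to 5.41 CPM, log2 fold change 1.27, edgeR adjusted p = 1.51e-05) and Lyz2 (0.758 to 2.01 CPM, 1.48, 0.000115), and none was lower. Of all genes, 21.2% were higher and 21.4% lower. Cd68, Cd14 and Coro1a did not pass, Coro1a being at 0.321, 0.4 and 0.594 CPM with WM-2474 and 0.403, 0.242 and 0.231 CPM with WM-8014. Ptprc, the CD45 gene that defines leukocytes, had 10 reads over the WM-2474 group and 14 over the WM-8014 group at 96 h and 7 and 3 at 240 h. At 240 h Adgre1 had 4 and 1, and Cd52 had 0 in both. Other untested markers of this list went both ways at 240 h. Mrc1 was at 0.214, 0.133 and 0.148 CPM with WM-2474 and 0.302, 0.38 and 0.346 CPM with WM-8014. Spi1 had 0, 1 and 0 reads with WM-2474 and 2, 5 and 0 with WM-8014. Laptm5 was at 0.107, 0.311 and 0.0495 CPM with WM-2474 and 0, 0.104 and 0 CPM with WM-8014. The 7 T cell markers summed to 0.578 to 1.11 CPM with WM-2474 and 1.28 to 1.77 CPM with WM-8014 at 96 h, ranges that did not overlap, and to 0.247 to 0.444 and 0.202 to 0.346 CPM at 240 h. Lck, the single T cell marker that passed the filter, had no call between the compounds at 240 h (adjusted p = 0.278). Of 11 markers of B and dendritic cells, Xcr1 was higher (0.49 to 1.36 CPM, adjusted p = 0.00179) and Zbtb46 did not pass, while the B cell gene Ms4a1 had 0 reads in all groups. Markers shown beside the members by name other than Ptprc and Adgre1 were picked with their values in view. The part of other cell types in the results was not tested, and in bulk RNA fewer cells of a type and less RNA per cell cannot be told apart.

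Markers of other cells moved mainly with time. The 8 epithelial and mesothelial markers summed to 39.4 to 67.1 CPM at 96 h and 16.8 to 27 CPM at 240 h over both compounds, and the 6 endothelial markers to 3.89 to 7.6 and 2.36 to 3.12 CPM. All 4 tested endothelial markers fell with time under each compound. Of 5 tested epithelial and mesothelial markers, 4 and 2 fell under WM-2474 and WM-8014, where 19.1% and 25% of all genes fell. Those ranges did not overlap between the times, as with H2-K1 under each compound, and their part in it was not tested. The 6 skeletal muscle markers summed to 260 to 345 CPM with WM-2474 and 497 to 718 CPM with WM-8014 at 240 h. Nearly all of this came from Acta1 and Des. Myod1, Myog, Myf5 and Ckm had at most 5, 11, 2 and 1 reads in any library, and 3 of the 6 markers had none in the WM-8014 240 h group. Both that were tested, Des and Acta1, were higher with the inhibitor, beside 21.2% of all genes. Acta1 was not called without culture 5 in all groups (edgeR adjusted p = 0.0687).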

How the data were processed

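RNeasy columns and the TruSeq Stranded mRNA kit were used for RNA and libraries, per the labels' protocols. The deposited table, with genes under Entrez numbers, holds raw read counts; featureCounts and mm10 are named in the submitters' processing notes. Aligner, annotation, strand setting and versions were not given in the sources used, so reads of overlapping or antisense genes may not be separated. The deposited gene lengths, in bases per the file headers, served only for levels per kb. Library totals were 10147466 to 45903190 reads, where 3 reads stand for 0.0654 to 0.296 CPM, a limit of counting alone.

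Identifiers were matched to symbols in a RefSeq table of GRCm38.p6 (25275 of 27179, 93%). Counts were tested in R 4.3.3 with edgeR 4.0.16: filterByExpr by group (14136 genes left), TMM scaling, group means fitted over all 12 libraries, no culture block, and two-sided quasi-likelihood F tests (robust) with Benjamini-Hochberg adjustment over all 14136 genes and a threshold of 0.05 (common biological coefficient of variation 4.64%). Standard errors and 95% intervals come from the fold change and its F statistic. A level in CPM is the count over the TMM-scaled total, and likeness used log2 CPM with a prior count of 2. On simulated data for the 240 h comparison, with 200 of the 14136 genes changed, 86% of 100 genes changed 2-fold and 70% of 100 changed 1.5-fold were recovered. In that run 11 unchanged genes were called. Far more genes, 42.6%, passed in the data, so these rates need not hold there.

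The members, the lists, the tests and the alternatives were chosen with earlier results of these data known. The text names all members, 11 further genes whatever their values, up to 4 genes per list with the smallest p in the 240 h and time comparisons, the tested genes within 200000 bases of H2-DMb1, the 5 genes most like H2-DMb1, H2-K1 and Tap1, and the markers Ptprc and Adgre1; 2 genes that this rule names are not reported here. Alternatives were DESeq2 (1.42.0) and its size factors, no filter, the culture block, each library or culture left out, cultures 6 and 7 left out of the WM-2474 96 h group, only the 2 groups compared, and thinned counts. Deviations of same-numbered cultures were weakly correlated at 96 h (0.14, 0.15 and 0.16), at 240 h (0.064, 0.24 and 0.048) and over time (0.029 to 0.19). The main tests did not pair libraries by number at either time, and only the culture block used the numbers. Counts over same-numbered cultures are a description.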

Additional observations from a re-analysis of the deposited data

Results flagged for a closer look

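Slc39a7, a zinc transporter gene in the H2-DMb1 neighbourhood, had compound log2 fold changes of opposite sign at the 2 times. WM-8014 libraries were lower than WM-2474 libraries in all 3 cultures at 96 h (log2 fold change -0.07) and higher in all 3 at 240 h (0.05, edgeR adjusted p = 0.202). The difference between the times was not tested.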

How the results depend on the processing

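Over 22 alternatives, 22 tested results of the members gave 484 values, of which 445 kept direction and side of the threshold. Another 30, from 6 results that were not called, changed sign without being called: Tap2 at 240 h, B2m and Tap1 over time under WM-2474, H2-D1 over time under WM-8014 and Tapbp over time under both. No called value changed sign. The other 9 concern B2m and Tap1 at 240 h, H2-D1 over time under WM-2474 and Tap1 over time under WM-8014, with values beside those results. The culture block, with replicate numbers as a term, changed no member's call and gave again 5 higher and 2 lower at 240 h. DESeq2's size factors shifted the median log2 fold change by at most 0.0057. Without culture 5, 6 or 7, or 1 library, the counts of members at 240 h were 3 to 5 higher and 2 lower (5 and 2 in all libraries), and over time under WM-2474 1 to 2 lower. Of the further genes, leaving out 1 library or culture gave 11 to 19 higher and 2 to 8 lower at 96 h, 7 to 12 lower at 240 h and 8 to 13 lower over time under WM-2474. The 96 h count of lower genes was 4 without culture 6 in all groups. Thinned to the smallest total, 7 were lower at 240 h. With cultures 6 and 7 left out of the WM-2474 96 h group, which leaves 1 library assumed to vary like the other groups, 7 further genes were higher and 0 lower at 96 h, 6 rose and 7 fell over time under WM-2474, and 1 member fell. Fewer samples alone can end calls. H2-DMb1 in control libraries, at 6 to 47 reads, and H2-Ab1 are limited by depth.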
